A study of Mus musculus with 4 samples.

Results

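The Myc and Max network was described through its H3K27ac peaks in cultured mouse neural stem cells. Its 10 genes were Myc, Mycn and Mycl, which encode the MYC proteins, Max, their common partner, and Mxd1, Mxi1, Mxd3, Mxd4, Mnt and Mga, which encode other partners of MAX. They were given by name, and all 10 were found among the 21627 protein-coding genes of the RefSeq table on chromosomes 1 to 19 and X. A peak was assigned to a gene when it overlapped the gene body extended by 20 kb on both sides. By that rule 102 of the 91557 peaks of the Smchd1-deleted list and 72 of the 63613 peaks of the control list belonged to the network.

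MYC proteins bind DNA as pairs with MAX, preferably at the E-box CACGTG, and recruit histone acetyltransferases there. MXD proteins and MNT compete for MAX, bind the same sequence and recruit SIN3 with histone deacetylases, and MGA joins MAX in a Polycomb complex. In neural progenitors MYC proteins, above all MYCN, are known for sustaining growth and division. H3K27ac, acetylation of lysine 27 of histone H3, marks active promoters and enhancers.

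Each condition had 1 H3K27ac ChIP library and 1 whole-cell input, with no replicates, so every difference below lies between 2 libraries and none has a test between conditions. The Smchd1 del/del cells came from female E14.5 embryos that carried 1 deleted and 1 floxed Smchd1 allele. They were transduced with an MSCV-Cre-puro retrovirus, given puromycin after 24 h and collected on day 7. The control cells, titled Smchd1 fl/fl, were the untransduced share of such cultures, so deletion, transduction and any difference in selection cannot be told apart. Puromycin at 24 h and collection on day 7 are recorded for both groups. Cells of both groups had a maternal X chromosome of strain 129 with the Xist deltaA allele and a paternal Castaneus X chromosome, and the strain field reads C57BL/6. Smchd1 encodes a chromatin protein that takes part in X inactivation and in silencing at imprinted and clustered genes. Some fields go against the titles: the antibody field names H3K27me3, the control ChIP is given as del/fl, and the control input is given as del/del.

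After filtering, the ChIP of deleted cells kept 54194233 tags against 42277672 for control cells, 1.282 times as many. The deleted list was 1.44 times as long as the control list (95% interval 1.42 to 1.45, counting error only). The lists were checked against cell type markers by start-site peaks in both lists. These were present at 7 of 8 neural stem cell markers and at 1 of 6 neuron markers, beside 50.4% of coding genes. They were present at 1 of 4 fibroblast markers, and at 0 of 4 microglial, 0 of 4 endothelial and 0 of 4 pluripotency markers. Pax6, a neural stem cell marker, had no start-site peak in either list, and Camk2a, a neuron marker, had one in the deleted list only, with a fold enrichment of 5.54. Their part in the results was not tested.

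Promoter sequences of 9 of the 10 genes were matched in the RefSeq promoter table of GRCm38.p6, in 11 entries that run from 250 bases before to 50 bases after a start site. Myc had no entry. The E-box CACGTG, which reads the same on both strands, was found in 3 of the 11 entries, those of Max, Mnt and Mxd4. It was in 7.91% of the 21044 entries of coding genes and in 7.15% of all 32851 promoter entries. These 3 promoters are shown because they hold the letters that the network's own proteins are known to bind, and the E-box is in capitals.
Max, chr12:76962199-76962498, minus strand: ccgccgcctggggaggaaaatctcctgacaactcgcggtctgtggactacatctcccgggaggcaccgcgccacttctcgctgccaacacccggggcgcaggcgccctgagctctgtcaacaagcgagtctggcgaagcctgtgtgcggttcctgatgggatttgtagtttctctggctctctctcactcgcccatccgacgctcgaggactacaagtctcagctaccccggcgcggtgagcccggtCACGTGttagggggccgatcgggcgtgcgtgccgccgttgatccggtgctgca
Mnt, chr11:74830674-74830973, plus strand: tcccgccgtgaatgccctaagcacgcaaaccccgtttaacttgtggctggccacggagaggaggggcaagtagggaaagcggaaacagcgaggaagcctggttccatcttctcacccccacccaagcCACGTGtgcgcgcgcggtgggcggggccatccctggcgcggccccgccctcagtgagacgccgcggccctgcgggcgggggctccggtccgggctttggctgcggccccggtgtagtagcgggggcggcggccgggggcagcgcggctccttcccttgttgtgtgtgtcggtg
Mxd4, chr5:34187661-34187960, minus strand: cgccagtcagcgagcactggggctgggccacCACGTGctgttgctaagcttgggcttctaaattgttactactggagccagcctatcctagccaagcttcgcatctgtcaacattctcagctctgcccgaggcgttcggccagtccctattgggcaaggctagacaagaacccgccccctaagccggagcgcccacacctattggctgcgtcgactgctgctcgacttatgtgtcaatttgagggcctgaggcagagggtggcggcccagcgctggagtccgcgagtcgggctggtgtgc

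The Mycn promoter is shown because Mycn was the only network gene with peaks in 1 list alone. It held TTTGGCGC at 2 places and TTTCGCGC, on the opposite strand, at 1 place. Both are forms of the E2F motif and were searched on both strands. TTTGGCGC is in 0.514% and TTTCGCGC in 0.323% of all promoter entries. The match at -179 overlaps the one at -183, while the one at -168 stands apart, and the letters of all 3 are in capitals.
Mycn, chr12:12941787-12942086, minus strand: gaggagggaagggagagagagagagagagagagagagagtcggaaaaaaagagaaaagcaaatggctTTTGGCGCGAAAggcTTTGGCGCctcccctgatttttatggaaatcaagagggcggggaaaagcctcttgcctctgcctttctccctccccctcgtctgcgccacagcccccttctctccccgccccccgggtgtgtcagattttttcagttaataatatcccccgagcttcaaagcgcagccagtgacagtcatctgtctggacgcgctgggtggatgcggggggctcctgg

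Counted to the first letter of a match, with the start base as 0, the E-box lay at -3 in Max, -123 in Mnt and -219 in Mxd4, and the Mycn matches lay at -183, -179 and -168. None of the 3 E-boxes and none of the 3 Mycn matches lay inside a peak of either list. The nearest deleted peak was 94 bases from the Max E-box and the nearest control peak 363 bases. For the Mnt E-box these distances were 18 and 24 bases, and for the Mxd4 E-box 207 and 195 bases. CCAAT, searched on both strands, occurred 4 times in the Mxd1 promoter and 2 times in the Mxd4 promoter, and in 37.4% of all entries. These matches are letters in a window and do not show that a factor was bound.

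Network genes had more peaks in the deleted list, in a ratio close to that of all coding-gene windows. The 102 deleted peaks against 72 control peaks gave a ratio of 1.42 (95% interval 1.04 to 1.94), and peaks in the window of any coding gene gave 1.41 (77044 deleted and 54576 control peaks). Network peaks covered 45.4 kb in the deleted list against 29.4 kb in the control list. Of the deleted peaks, 40 overlapped no control peak, or 39.2% (29.7 to 49.4%), against 50.6% of all deleted peaks and 49% of those in the window of any coding gene. Of the control peaks, 10 overlapped no deleted peak, or 13.9% (6.87 to 24.1%), against 24.3% of all control peaks and 23.2% of those in the window of any coding gene. Peaks without a partner in the other list are called list-only here, and the others shared. Both network shares were below the shares of all peaks, but both intervals included the shares in the window of any coding gene. Neighbouring peaks are not independent, so the intervals are too narrow. When overlapping peaks of both lists were joined, the network held 108 regions, of which 58 were in both lists, 40 in the deleted list alone and 10 in the control list alone.

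**Figure D1:**
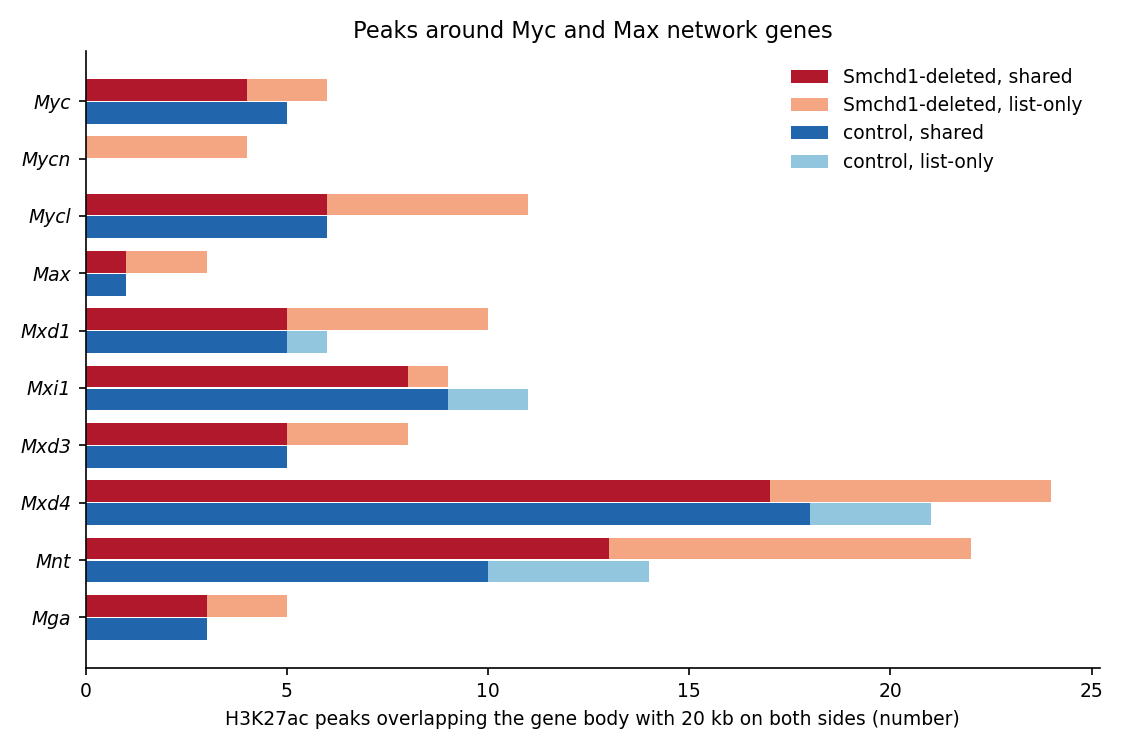
Number of H3K27ac peaks overlapping each gene body with 20 kb on both sides, in the Smchd1-deleted list (upper bar) and the control list (lower bar), with shared peaks in dark and list-only peaks in light colour. Mycn has 4 deleted and 0 control peaks, and Mxi1 alone has fewer deleted than control peaks, 9 and 11.

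By gene, 9 of 10 had more deleted than control peaks, beside 50.7% of coding genes. Mxi1 had fewer, beside 9.16% of coding genes. With the deleted list cut to the length of the control list, 7 of 10 had more deleted peaks, Mga had 3 in each list, and Mxd4 also had fewer, 16 deleted against 21 control peaks. At a fold enrichment of 5 or more, 3 of 10 had more deleted peaks, Mycl, Mxd3 and Mnt, while 6 were tied and Mxd4 had fewer. Mycn had deleted peaks and no control peak, beside 5.13% of coding genes. A peak of each list within 1 kb of a start site was found at 9 of 10 genes, beside 50.4% of coding genes. Mycn had one in the deleted list only, beside 5.5% of coding genes, and no member had one in the control list only, beside 0.892% of coding genes. Long windows and active genes collect more peaks, so these shares describe the members and are no test of them.

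The enrichment of a peak is given as the authors' fold enrichment, the summit pileup over the background used for that peak. The lowest background of a list is called its floor here. Only 14.6% of deleted and 16.1% of control peaks had a background more than 2% above it. The fold enrichment is not scaled between libraries, so values of the 2 lists stand side by side and no ratio is taken. The median over all peaks was 3.53 in the deleted list against 4.04 in the control list. Network peaks had medians of 3.93 in the deleted list against 4.44 in the control list. List-only network peaks had medians of 3.36 in the deleted list against 3.53 in the control list, while shared network peaks had 4.53 and 4.64. Over all peaks the medians were 3.19 and 3.43 for list-only and 4.53 and 4.44 for shared peaks, so the lower enrichment of list-only peaks was general to the lists. At a fold enrichment of 5 or more there were 26 deleted network peaks, 2 of them list-only, beside 4.17% of all such deleted peaks. The control list had 24 such network peaks, 0 of them list-only, beside 1.28% of all such control peaks.

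**Figure D2:**
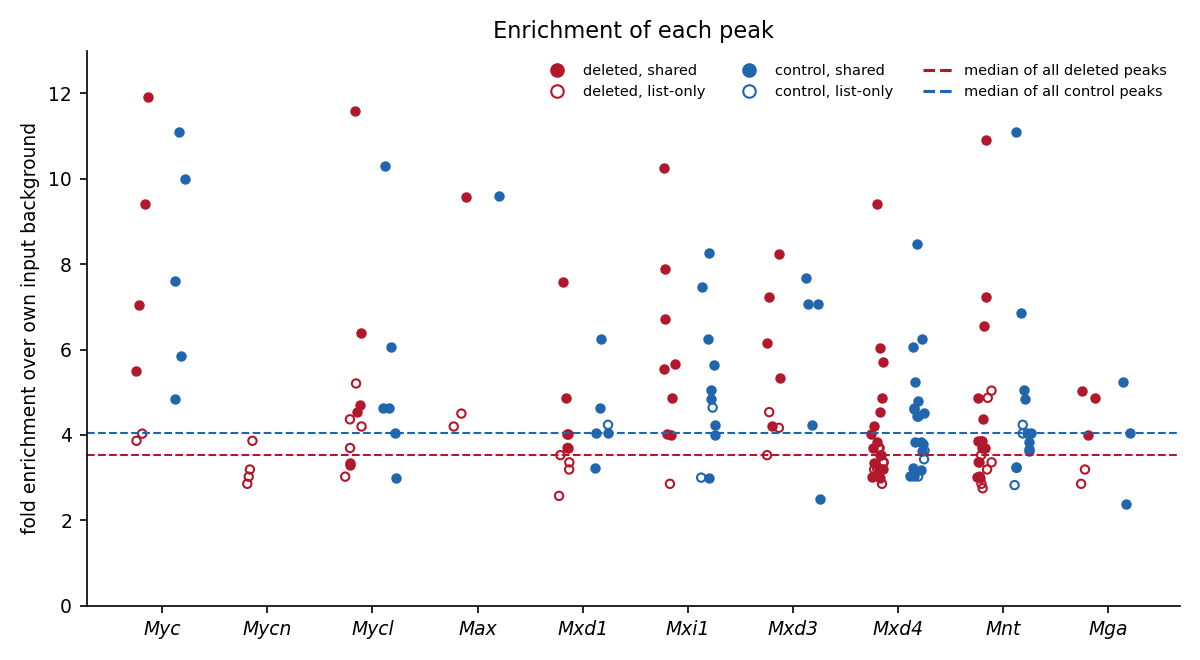
Fold enrichment of each network peak over its background, deleted list left and control list right for each gene. Filled points are shared and open points list-only peaks. Dashed lines are the medians of all peaks, 3.53 in the deleted list against 4.04 in the control list; open points reach at most 5.21 in the deleted list against 4.64 in the control list.

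Among the MYC genes, 21 deleted peaks, 11 of them list-only, stood beside 11 control peaks, 0 of them list-only. The list-only share of their deleted peaks was 52.4% (29.8 to 74.3%), against 50.6% of all deleted peaks. For their control peaks it was 0% (0 to 28.5%), against 24.3% of all control peaks. Both intervals included the share of all peaks, so these counts are not read as particular to the MYC genes. Myc, on chromosome 15 (61985341 to 61990361), encodes the founding member of the family. It had the strongest start-site enrichment of the network in the deleted list, while only Mnt was higher in the control list. The table gives no strand for Myc, so either gene end counted as a start, and distances run from the end at the lower coordinate. It had 6 deleted and 5 control peaks, which covered 3.97 and 3.20 kb.

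The strongest peak near the Myc start reached 11.9 in the deleted list, over 1748 bases from 61985579 to 61987326. In the control list it reached 10 over 1372 bases, from 61985553 to 61986924. The background was at the floor of its list for the deleted peak and above the floor for the control peak. The single deleted peak overlapped a second control peak, of 4.84 over 223 bases. In the gene body the strongest peak had 9.40 in the deleted list against 11.1 in the control list. The 2 list-only peaks, both deleted, lay further into the gene with 3.86 and 4.03. Each of the 5 control peaks of Myc thus overlapped a deleted peak, and what was listed in deleted cells alone was weaker than any of the shared peaks.

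Mycn, on chromosome 12 (12936093 to 12941836, minus strand), encodes the MYC protein of embryonic neural progenitors. It had 4 deleted peaks and no control peak. Their folds were 3.86 with the summit at -482 bases from the start, and 3.19, 2.85 and 3.02 with summits at 158, 642 and 1322 bases. They were 171 to 256 bases wide, covered 0.826 kb in all, and had −log10 q from 2.67 to 6.06. All 4 sat around the promoter, 3 of them within 1 kb of the start, and 3 of them were below the deleted list's median enrichment of 3.53. At a −log10 q of 5 or more 1 of the 4 was left, and at a fold enrichment of 5 or more 0 were left. Of the 47316 deleted peaks in the same range of enrichment, 69.7% were list-only. Of all coding genes 75, or 0.347%, had 4 or more deleted peaks and 0 control peaks. That limit was taken from the peak numbers of Mycn itself, so the share is no test of Mycn. The control ChIP had fewer tags, and the part of depth in this difference was not tested. In bulk cells, acetylation in more of the cells and more of it per cell cannot be told apart.

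Mycl, on chromosome 4 (122995588 to 123002490, plus strand), encodes L-MYC. It had 11 deleted peaks, 5 of them list-only, and 6 control peaks, each of them shared. The start-site peak had 6.38 in the deleted list, over 1008 bases, and 6.05 in the control list, over 630 bases. The highest list-only fold of the network was in this gene: 5.21 at 3680 bases after the start, over 416 bases, in the deleted list. The gene body held 3 of the 5 list-only peaks, while the fourth lay just past its end, at 6886 bases after the start, and the fifth at 17070 bases. The strongest peak of the window, with 11.6 in the deleted list against 10.3 in the control list, lay at the neighbouring Trit1, which encodes a tRNA-modifying enzyme.

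Max, on chromosome 12 (76937269 to 76962323, minus strand), encodes the partner that the network's proteins have in common. It had 3 deleted peaks and 1 control peak. The shared peak, with its deleted summit 529 bases after the start, had 9.57 over 661 bases in the deleted list against 9.60 over 342 bases in the control list. The 2 list-only deleted peaks had 4.20 with the summit at -509 bases from the start and 4.50 with it at 6211 bases. The promoter peak thus had close values of enrichment and was called wider in the deleted list. Peaks near Max covered 1.25 kb in the deleted list against 0.342 kb in the control list.

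**Figure D3:**
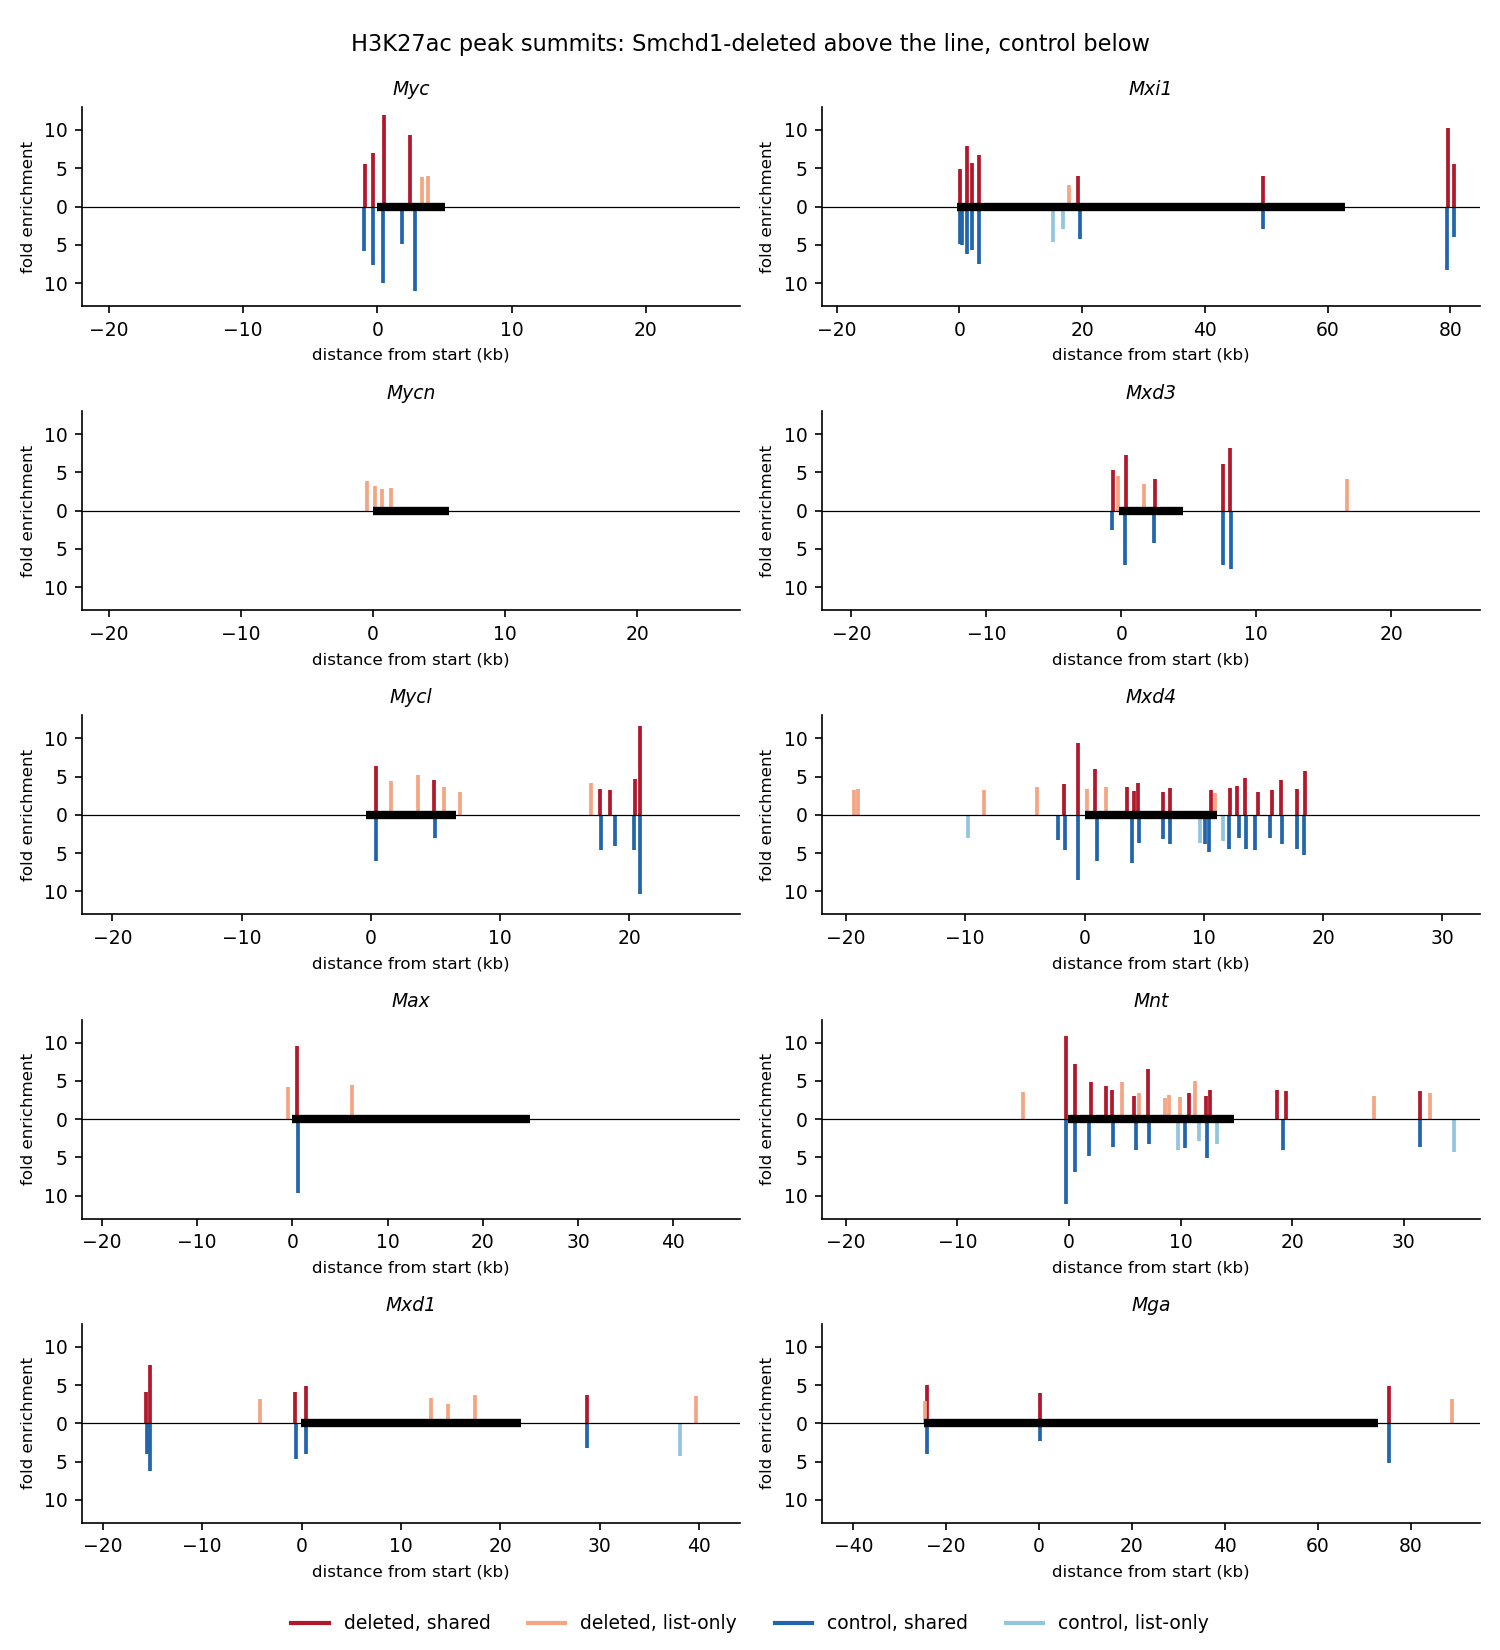
Summits of all network peaks by distance from the first start site in kb, with fold enrichment as the length of the line, deleted list above and control list below each axis; the thick bar is the gene body. Dark lines are shared and light lines list-only peaks; the strongest lines of Mycl, Mxd1, Mxi1 and Mxd3 stand at neighbouring genes.

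The 4 MXD genes, whose proteins compete with MYC for MAX, had 51 deleted peaks, 16 of them list-only, and 43 control peaks, 6 of them list-only. The list-only share of their deleted peaks was 31.4% (19.1 to 45.9%), below the 50.6% of all deleted peaks. For their control peaks it was 14.0% (5.30 to 27.9%), against 24.3% of all control peaks, which that interval included. Both intervals are too narrow, since neighbouring peaks are not independent. Mxd1, on chromosome 6 (86647044 to 86669234, minus strand), encodes a protein known to increase as progenitor cells differentiate. It had 10 deleted and 6 control peaks. Its promoter carried a peak on each side of the start in both lists, with 4.87 and 4.03 in the deleted list against 4.04 and 4.64 in the control list. The strongest peak of the window, 7.57 in the deleted list against 6.25 in the control list, lay upstream of Mxd1 at Snrnp27, which encodes a spliceosome protein. The strongest list-only peaks were weak and apart: 3.69 at 17428 bases after the start in the deleted list, and 4.24 at 38042 bases, beyond the gene, in the control list.

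Mxi1, on chromosome 19 (53310128 to 53373293, plus strand), encodes MXD2. It was the only member with fewer deleted than control peaks, 9 against 11, and yet the deleted peaks covered more, 5.05 kb against 4.30 kb. A single deleted peak of 1026 bases at the first start, with 7.89, overlapped 2 control peaks with 5.04 over 181 bases and 6.25 over 684 bases. The remaining difference was 1 list-only deleted peak, with 2.85, against 2 list-only control peaks, with 4.64 and 3.00, at 15232 and 16862 bases after the first start. The non-coding Gm30541 ends in that part of the window. The strongest peak, with 10.2 in the deleted list against 8.27 in the control list, lay at Smndc1, a splicing factor gene beyond the 3′ end of Mxi1.

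Mxd3, on chromosome 13 (55325170 to 55329900, minus strand), encodes the MXD protein known from dividing cells. It had 8 deleted peaks, 3 of them list-only, and 5 control peaks, each of them shared. Its start-site peak had 7.22 in the deleted list against 7.06 in the control list, over 423 and 432 bases. A second promoter peak had 5.33 in the deleted list against 2.50 in the control list. The background of that control peak was 7.00 against a floor of 3.96. The strongest list-only deleted peak had 4.53 and lay between these promoter peaks, with its summit at -243 bases from the start. The strongest peak of the window had 8.23 in the deleted list against 7.67 in the control list and lay at Rab24 and Prelid1.

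Mxd4, on chromosome 5 (34176580 to 34187710, minus strand), had the most peaks of the network: 24 in the deleted list, 7 of them list-only, and 21 in the control list, 3 of them list-only. Peaks per kb of window were higher than in 98.6% of coding genes for deleted peaks and in 98.9% for control peaks. The strongest lay just before the start, with 9.40 over 674 bases in the deleted list against 8.47 over 624 bases in the control list. Away from the start the strongest deleted peak had 5.71 and lay at Haus3 and Poln, and the strongest control peak had 6.25 at 3949 bases into the gene. List-only peaks reached 3.69 in the deleted list against 3.63 in the control list. The dense run of weak peaks through the gene and past its 3′ end was therefore present in both lists, with its stronger peaks shared.

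Mnt, on chromosome 11 (74830806 to 74845725, plus strand), encodes a broadly expressed repressive partner of MAX. It had 22 deleted peaks, 9 of them list-only, and 14 control peaks, 4 of them list-only, covering 9.61 and 5.60 kb. The peak just before the start was the strongest, with 10.9 over 284 bases in the deleted list against 11.1 over 276 bases in the control list. In the gene body a shared peak at 7114 bases had 6.55 in the deleted list against 3.25 in the control list. The background of that control peak was above the floor. The strongest list-only peaks had 5.04 at 11249 bases in the deleted list against 4.24 at 34451 bases, in Sgsm2, in the control list. Of the network's 10 list-only control peaks, 4 were in the Mnt window and 3 in that of Mxd4, the members with the most peaks.

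Mga, on chromosome 2 (119872503 to 119970129, plus strand), encodes a very large protein that binds MAX and also carries a T-box domain. It had 5 deleted peaks, 2 of them list-only, and 3 control peaks, each of them shared. At the start site of its promoter entry, which lies inside the RefSeq body, the peak had 4 over 325 bases in the deleted list against 2.38 over 499 bases in the control list. The background was above the floor in both lists there. At the upstream end of the body a peak had 5.04 in the deleted list against 4.04 in the control list. The strongest control peak, with 5.25, and its deleted partner, with 4.87, lay at Mapkbp1 beyond the 3′ end. The strongest list-only deleted peak, with 3.19, was also near Mapkbp1. With the start taken from its promoter entry, Mga had the weakest start-site peak of the 9 genes with one in both lists.

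Ordered by the strongest start-site peak in the deleted list, the genes ran Myc, Mnt, Max, Mxd4, Mxi1, Mxd3, Mycl, Mxd1, Mga and Mycn. In the control list the order was Mnt, Myc, Max, Mxd4, Mxd3, Mxi1, Mycl, Mxd1 and Mga. With 1 library per condition no spread is known, so neighbours in these orders are not separated. The place of Mga rests on the start in its promoter entry.

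Around the start sites the peaks seldom covered the start base and lay more often after it than before it. Mycl, Mga and the first Mxi1 start had no peak of either list within 1 kb upstream. Over the 11 promoter entries, the highest share of start sites under a peak was 72.7% in each list. It held at each step of the profile between 200 and 450 bases after the start, and again at 600 bases, in the deleted list, and at 450 bases in the control list. At the start base itself it was 9.09% in the deleted list, 1 of 11, the most downstream Mxi1 start, and 0% in the control list. Over all 21044 coding start sites the shares at the start base were 16.8% and 11.5%. Among coding start sites with a peak within 1 kb, 30.2% of those with a deleted peak and 22.4% of those with a control peak had the start base inside one. Upstream, the highest share was 45.5%, at -600 and -550 bases, in the deleted list against 18.2% in the control list. Over all coding start sites the highest upstream shares were 26.9% and 22.1%. Mxi1 alone gave 3 of the 11 network sites.

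**Figure D4:**
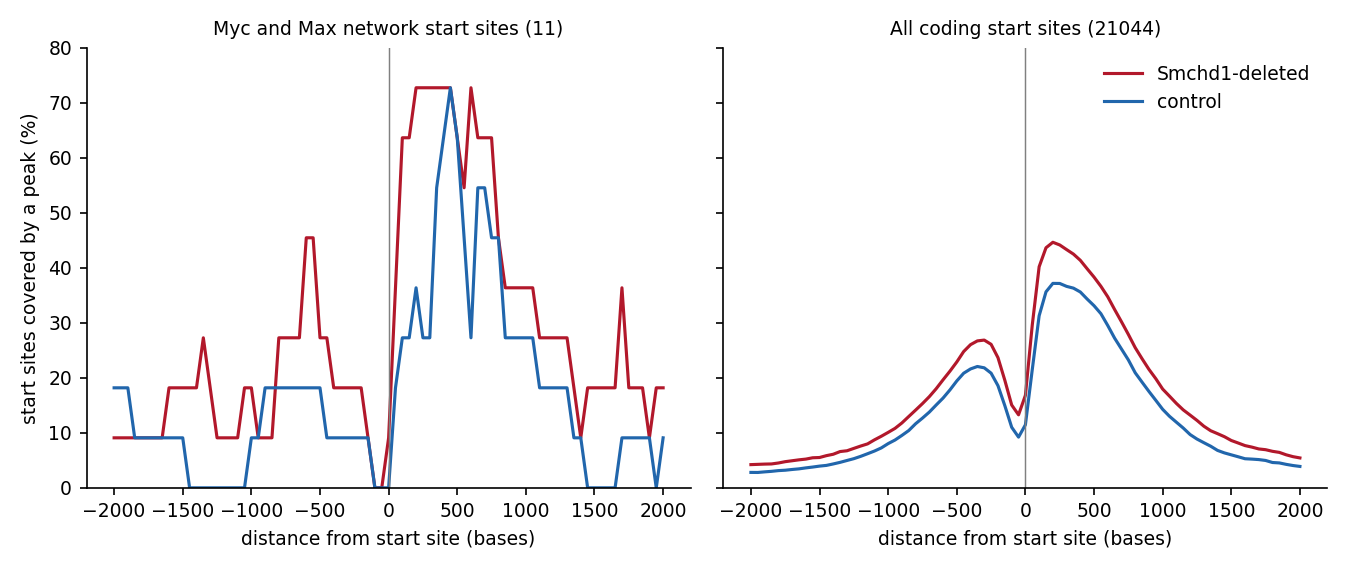
Share of start sites (percent) that lie under a peak at each distance from the start, in bases, for 11 network start sites and for all 21044 coding start sites, in the deleted and the control list. Over all coding genes the shares dip just before the start base, to 13.3% in the deleted list against 9.22% in the control list at -50 bases. The maxima lie after the start base in both panels. The network curves rest on 11 sites, so 1 site is 9.09%.

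By position, 24 deleted network peaks lay within 1 kb of a start, 7 of them list-only, and 18 control peaks, 0 of them list-only. Elsewhere in the gene bodies there were 41 deleted peaks, 20 of them list-only, and 26 control peaks, 6 of them list-only. Outside the bodies there were 37 deleted peaks, 13 of them list-only, and 28 control peaks, 4 of them list-only. The gene bodies held the most list-only peaks of both lists, 20 and 6. Over all peaks, at any position, 50.6% of deleted and 24.3% of control peaks were list-only. Shares by position over all peaks are not given here, so these counts are not read as particular to the network. The list-only deleted peaks near a start belonged to promoters that also had a stronger shared peak, except at Mycn. The window reaches neighbours: the nearest gene was the member itself for 72 of the 102 deleted and 52 of the 72 control peaks.

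Of the shared peaks, 50 pairs matched 1 to 1. Deleted peaks were wider in 36 of the 50 pairs, beside 67.6% of 35969 pairs genome-wide, with median widths of 466 bases in the deleted list against 340.5 bases in the control list. To compare enrichment without a common scale, each peak was given its percentile among the 1 to 1 pairs of its list. The deleted peak had the higher percentile in 21 of the 50 network pairs, 42%, and in 49.5% of all pairs, and the median shift was -0.78 percentile points in the network and -0.11 over all pairs. The largest shifts upward were the Mnt gene-body peak, by 64.8 points, and the second Mxd3 promoter peak, by 64.1 points. Both had a background of 7.00 in the control list. The largest downward was an Mxd4 peak past the 3′ end, of -46.3 points. The wider peaks were those of the deeper library, and the part of depth in this was not tested. The percentiles showed no common shift.

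**Figure D5:**
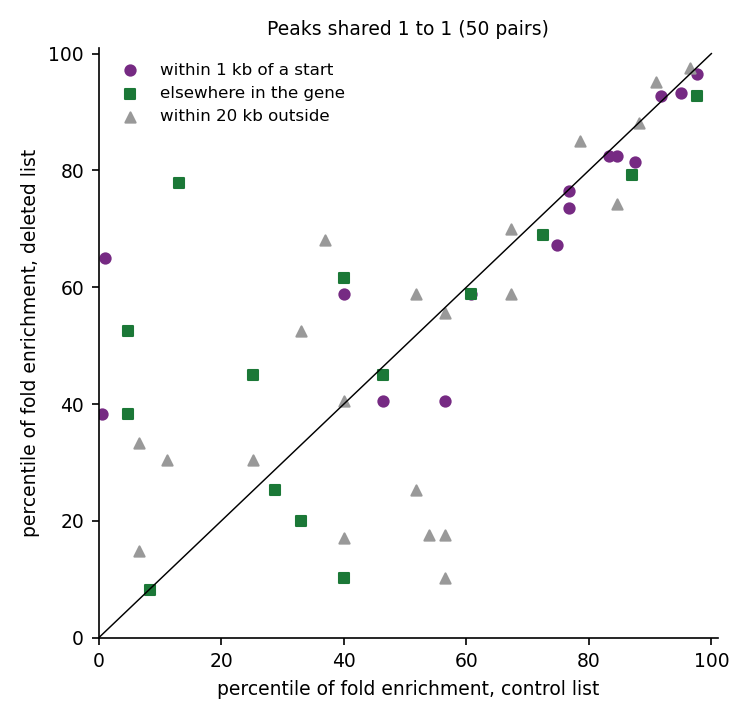
Percentile of fold enrichment in the deleted list (vertical) against that in the control list (horizontal) for the 50 network peaks shared 1 to 1; the line marks equal percentiles. Strong peaks lie along the line, and 2 points far above it, in Mnt and Mxd3, are shifted by 64.8 and 64.1 points.

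The wider network was read from lists with 64 entries: the MLX branch, MYC cofactors, SIN3 and HDAC corepressors, Polycomb partners of MGA, and MYC targets, with Wdr5 in 2 lists. A start-site peak in both lists was found at 63 of the 64 entries, and none had one in 1 list only. Over all coding genes these shares were 50.4% for both lists, 5.5% for the deleted list only and 0.892% for the control list only. By list, these were 2 of 3 MLX-branch genes, 16 of 16 cofactors, 10 of 10 corepressors, 10 of 10 Polycomb partners and 25 of 25 targets. The exception was Mlxipl, which encodes the glucose-responsive ChREBP and had none in either list. Active genes collect more peaks, so these shares describe the entries and are no test of them. In the deleted list the strongest start-site peaks were at Cbx3, with 18.8, Ncor1, with 18.3, and Rrs1, with 15.1. In the control list they were at Ncor1, with 18.4, Aurka, with 15.3, and Cbx3, with 15.1. Cbx3 encodes a heterochromatin protein, Ncor1 a corepressor, Rrs1 a ribosome assembly factor and Aurka a mitotic kinase.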

How the data were processed

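The submitters' processing notes name bcl2fastq, Bowtie 0.12.9 and the mouse build mm10. Per the file headers, the authors ran MACS2 2.1.0.20140616 once per ChIP with the matching input as its control, a q-value limit of 0.05 and 1 tag kept per position. Tags were 80 bases long, and 77101643 input tags were kept for deleted against 80601280 for control cells. Each deposited peak has its pileup signal, −log10 p, −log10 q and fold enrichment over background, as written by the authors' run.

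The 10 genes and the gene and marker lists were chosen with earlier results of these data known. Gene bodies came from the RefSeq table of GRCm38.p6, which shares its main chromosomes with mm10. Start sites came from promoter entries, present for 17273 of 21627 coding genes, and otherwise either gene end was used. A peak was shared when it overlapped a peak of the other list by at least 1 base. The background was recovered as (pileup + 1) / fold − 1. It was above the floor when over 2% higher than the lowest of its list, which was 4.96 for deleted and 3.96 for control peaks. Shares have exact Clopper-Pearson 95% intervals, which cover counting error only. For each gene, the strongest start-site peak, the strongest peak elsewhere and the strongest list-only peak of each list were named, and of the wider lists the 3 strongest start-site peaks of each list and any gene with one in 1 list only; other peaks named were chosen after their values were seen. Overlap counting was tested on simulated peaks. Python 3.11.15, pandas 2.3.3 and scipy 1.17.1 were used.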

Additional observations from a re-analysis of the deposited data

How the results depend on the processing

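The ratio of deleted to control network peaks was 1.42 and stayed above 1 under every alternative run: 1.083 at a fold enrichment of 5 or more, 1.125 with the deleted list cut to the length of the control list, 1.294 at a −log10 q of 5 or more, 1.529 with 50 kb on both sides, and 1.361 to 1.529 leaving out each gene in turn. Over all peaks the ratio was 1.04 at that fold enrichment, 1.29 at that −log10 q, and 1 by construction with lists of equal length. Requiring an overlap of 50% of both peaks gave list-only shares of 58.82% of deleted and 41.67% of control network peaks, against 66.7% and 52.1% of all peaks. At a fold enrichment of 5 or more in both lists 23.08% of deleted network peaks were list-only, against 26.9% of all deleted peaks. In alternatives chosen after seeing the data, the filtered peaks were set against the whole other list: 24.24% of deleted network peaks were then list-only at a −log10 q of 5 or more, against 26.6% of all such deleted peaks. At a fold enrichment of 5 or more they were 7.692% of deleted and 0% of control network peaks, against 4.17% and 1.28% of all such peaks, so that the deleted share was above that of all peaks there and below it in the other settings given here. The cause of these differences was not tested. Mxd4 had 3 more deleted than control peaks, but -1 at a fold enrichment of 5 or more and -5 with lists of equal length. Mycn kept 1 deleted peak at a −log10 q of 5 or more, 2 with lists of equal length and 0 at a fold enrichment of 5 or more. The Mxi1 difference became 0 with 50 kb on both sides. The number of genes with a start-site peak in both lists was 8 at that −log10 q and 7 at that fold enrichment, against 9. No paired analysis was possible because each condition had 1 ChIP library. The control ChIP was the shallower one, and the part of depth in the deleted-only peaks was not tested. A peak missing from a list was not called at that depth, which does not show that acetylation is absent.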

Other observations

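Pvt1, a long non-coding RNA gene downstream of Myc that is known to hold Myc enhancers, starts 47.6 kb from the Myc body, outside the window used for Myc. Its window held 56 deleted peaks, of which 29 or 51.8% (95% interval 38 to 65.3%) were list-only, and 33 control peaks, of which 5 or 15.2% (5.11 to 31.9%) were list-only. The shares over all peaks were 50.6% and 24.3%. Its strongest peak, with 9.74 in the deleted list against 8.88 in the control list, lay at its 5′ end and was shared. At a fold enrichment of 5 or more it had 9 deleted and 8 control peaks, against a ratio over all peaks of 1.04 at that enrichment and 1.44 without the limit. The strongest list-only peaks had 4.83 in the deleted list against 5.17 in the control list.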
